A study of Mus musculus with 16 samples.

Results

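Genes that mark arterial, venous and lymphatic endothelial cells (ECs) were followed in RNA-seq of mouse pulmonary ECs. They are 10 genes chosen by name: Gja4, Gja5 and Bmx for arteries, Nr2f2 and Slc6a2 for veins, and Prox1, Lyve1, Ccl21a, Mmrn1 and Reln for lymphatic vessels. The 10 names hold 11 of the 54532 rows of each table, because Ccl21a is listed at 2 places in the genome.

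ECs were isolated from lung 24 h after an intratracheal instillation, with magnetic beads against CD31 after cells bearing CD45 had been removed. In the first experiment adult male wild-type (WT) C57/BL6J mice received saline (n = 4) or lipopolysaccharide (LPS, a bacterial cell wall component) at 10 mg/kg (n = 6). The second experiment compared Fgfr1 loxP/loxP (n = 3) with Fgfr1 iΔEC/iΔEC mice (n = 3), all given LPS at 2 mg/kg, and it holds no saline group. Both genotypes carried the floxed Fgfr1 alleles and were given tamoxifen, and the iΔEC/iΔEC mice also carried CreERT2 under the VE-cadherin promoter, which is active in ECs. No source used here gives the age of the floxed mice at instillation. The deposited values are FPKM, that is, read numbers divided by the length of the gene and the size of the library. On genes there were 13478726 to 18807007 reads in the saline libraries, 17840221 to 19043015 in the LPS libraries, 15969575 to 17002788 in the loxP/loxP libraries and 16642177 to 16943522 in the iΔEC/iΔEC libraries. Tests were made within an experiment only.

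Blood and lymphatic vessels are lined by ECs of a common lineage that hold different identities. Arterial identity is set by Notch signalling and comes with connexins that couple neighbouring cells, whereas the nuclear receptor COUP-TFII, encoded by Nr2f2, restrains Notch in veins. Lymphatic ECs arise mainly from veins when Prox1, a homeobox transcription factor, is switched on, and lung lymphatics drain fluid and carry leukocytes to lymph nodes.

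Before the comparisons, the libraries were examined for their cell content with fixed lists of marker genes. Pecam1, the gene of CD31, had 400 ± 81.5 FPKM (SD, n = 4) in saline and 358 ± 76.8 FPKM (SD, n = 6) in LPS libraries (log2 fold change -0.17, adjusted p = 0.516). Ptprc, the gene of CD45, had 6.97 ± 3.13 FPKM in saline and 34.5 ± 11.4 FPKM in LPS libraries (log2 fold change 2.19, adjusted p = 0.000112). The 8 neutrophil genes, of which S100a9 was the most abundant, summed to 1392 FPKM in saline 1, 75.6 FPKM in saline 2, 310 FPKM in saline 3 and 79.5 FPKM in saline 4. They summed to between 1281 and 6639 FPKM in the LPS libraries, with a median of 2595 FPKM. The sum of saline 1 therefore lay within the LPS range, although for S100a8, Csf3r and Ly6g every saline library was below every LPS library. Among the saline libraries, saline 1 also had the highest sums of the macrophage list (129 FPKM, where saline 2 to 4 had 20.6 to 25.0 FPKM and the LPS libraries 635 to 1717 FPKM), the pan-endothelial list (6126 FPKM) and the cardiomyocyte list (24.5 FPKM). It likewise had the highest saline sums of the 3 arterial and the 2 venous markers and of the leukocyte, mural and epithelial lists. Saline 3 had the lowest sum of the lymphocyte list in saline (24.0 FPKM, where the others had 104 to 134 FPKM), and the fewest genes with a read (20258), whereas saline 4 had the most (29713). Marker calls and list counts that changed without saline 1 or without saline 3 are given both ways.

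The levels of the 10 genes spanned more than 3 orders of magnitude on the FPKM scale, which is per length. In saline, Lyve1 was the highest with a mean of 538 FPKM, followed by Gja4 with 132 FPKM, Slc6a2 with 24.5 FPKM, Gja5 with 10.4 FPKM, Ccl21a with 8.68 FPKM, Bmx with 7.60 FPKM, Nr2f2 with 3.09 FPKM and Mmrn1 with 1.27 FPKM. Prox1 had 0.209 FPKM and Reln, a secreted glycoprotein gene, 0.126 FPKM. The mean of Lyve1 was 2578 times that of Prox1 in saline (1450 times without saline 1, where Lyve1 had a mean of 308 FPKM) and 1295 times in loxP/loxP mice, although both mark lymphatic ECs. Over the saline libraries the lowest Lyve1 value (236 FPKM) stood above the highest Gja4 value (186 FPKM), and the lowest Gja4 value above the highest Slc6a2 value. The ranges of Slc6a2, Gja5, Ccl21a and Bmx ran into each other, as did those of Prox1 and Reln. Within the same library, Gja5 was above Bmx and Prox1 above Reln in 4 of 4 saline libraries, Slc6a2 above Gja5 and Gja5 above Ccl21a in 3, and Ccl21a above Bmx in 2. Prox1 rested on 18 to 52 reads per saline library, which limits its precision.

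**Figure D1:**
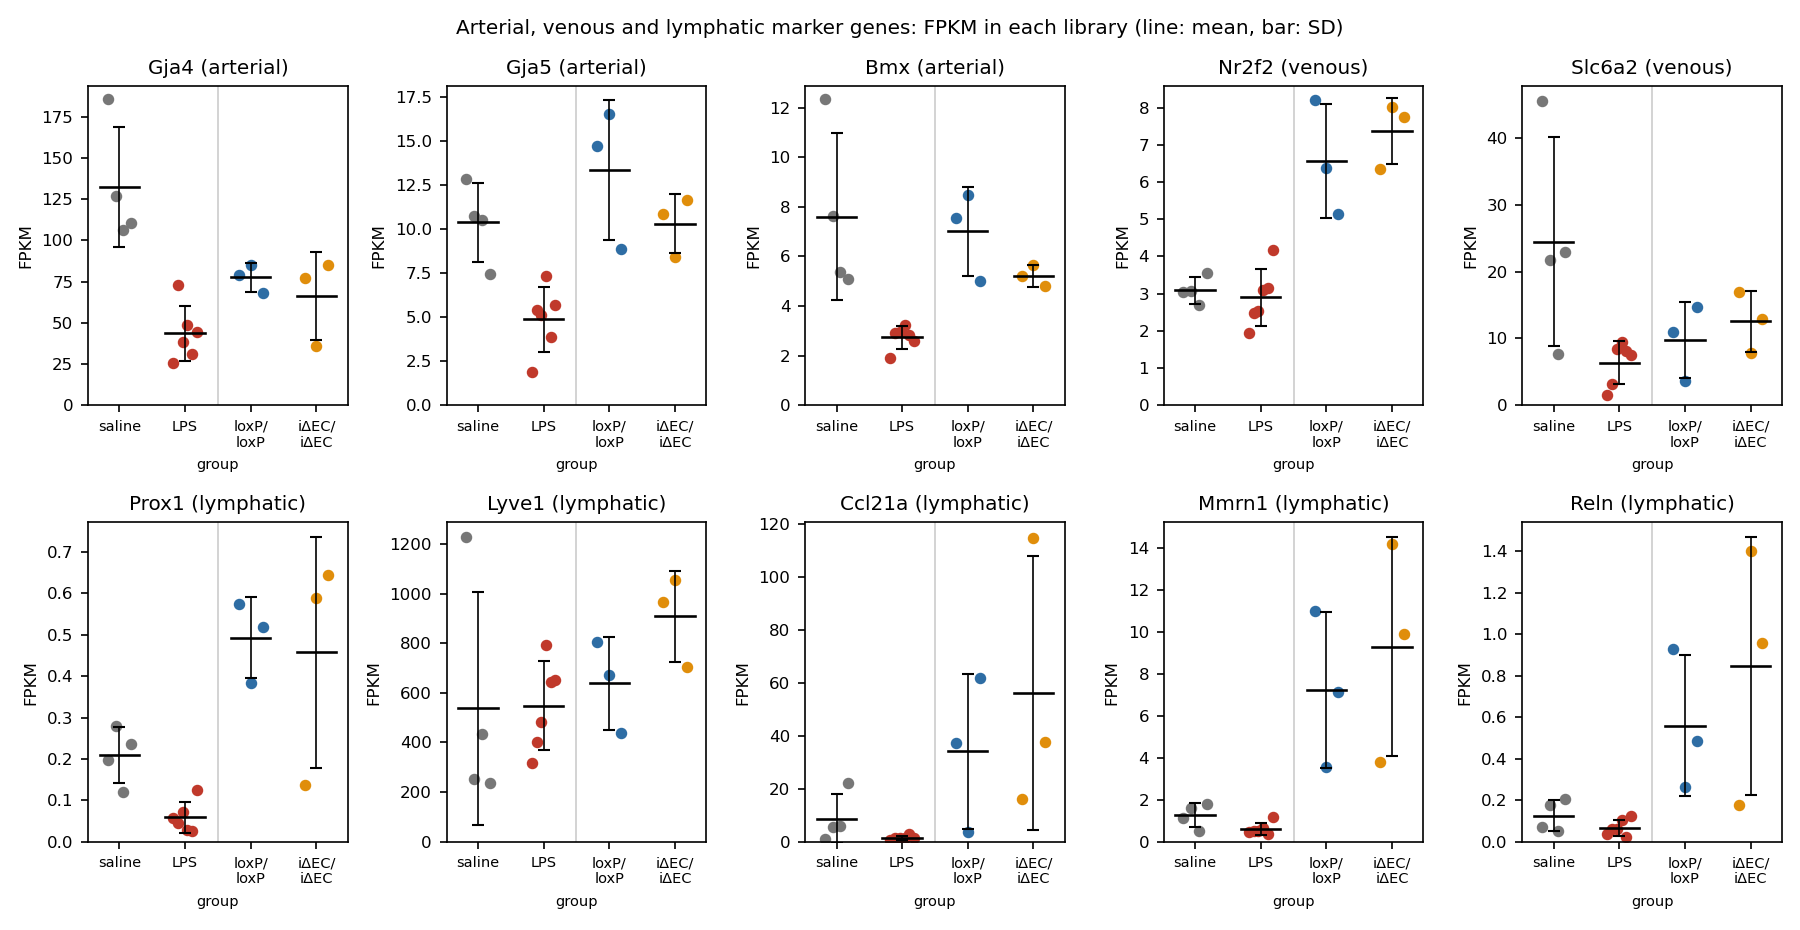
FPKM of each marker gene (y axis, linear, separate scale per gene) in each library of the 4 groups (x axis). Points are libraries, horizontal lines are group means and bars are SD, with bars that would reach under 0 ending at the axis. The 6 LPS libraries lie below the 4 saline libraries for Gja4, Gja5 and Bmx, and the loxP/loxP and iΔEC/iΔEC libraries overlap for every gene shown.

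The first comparison asked how the markers differ between ECs of LPS-treated and saline-treated WT mice. All 3 arterial genes fell in LPS. Of the 8 marker rows that passed the filter of a mean of 0.5 FPKM, 5 were lower and 0 were higher at a Benjamini-Hochberg adjusted p of 0.05 or less in limma, where 6 had an unadjusted p under 0.05. Over all 14893 genes tested, 23.7% were called lower and 29.5% higher. The median log2 fold change was -1.07 over the 8 marker rows and 0.01 over all genes tested. The 5 lower rows were Gja4, Gja5, Bmx, Slc6a2 and Ccl21a. Without saline 1 the same 5 rows were called lower, and Lyve1 was called higher (adjusted p = 0.0489). The count was also 5 without saline 3, with Mmrn1 (adjusted p = 0.011) in place of Ccl21a (adjusted p = 0.054). Another scaling changes this count. When libraries were scaled on the pan-endothelial list instead of the median of ratios, the log2 fold change of the median gene moved to 0.61, 4.63% of genes were called lower and 50.0% higher, and 1 marker row, Gja4, was called lower. RNA of the whole fraction does not separate fewer cells of a type from less RNA per cell.

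The arterial genes are Gja4, which encodes connexin 37, Gja5, which encodes connexin 40, and Bmx, which encodes a Tec family tyrosine kinase. Connexins form the gap junctions through which ECs of an artery exchange ions and small molecules. Gja4 lies on chromosome 4 at 127311421 to 127314039 (minus strand), Gja5 on chromosome 3 at 96904693 to 97077416 (plus strand) and Bmx on chromosome X at 164192842 to 164258193 (minus strand), all on GRCm38. The listed span of Gja5 overlaps 4 genes on the opposite strand, and the sources used here do not state whether reads were counted by strand. Since these 3 genes moved together, the 250 bases before their RefSeq starts (GRCm38.p6) are shown 5′ to 3′ on the strand of the gene, at chr4:127314040-127314289 for Gja4, chr3:97032152-97032401 for Gja5 and chrX:164258194-164258443 for Bmx. The Gja5 window lies inside the span that the tables give for the gene. Capitals mark matches on either strand to AGGAAG (a site of ETS factors, longer than their core), CACCC (of KLF factors) or ACAAT (of SOX factors). No matches overlap, and shorter forms of the ETS site were not marked.
Gja4: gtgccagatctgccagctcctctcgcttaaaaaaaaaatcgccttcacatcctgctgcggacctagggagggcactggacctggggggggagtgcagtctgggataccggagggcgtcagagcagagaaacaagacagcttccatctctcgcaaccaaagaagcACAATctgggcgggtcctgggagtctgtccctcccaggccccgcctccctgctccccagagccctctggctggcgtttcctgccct
Gja5: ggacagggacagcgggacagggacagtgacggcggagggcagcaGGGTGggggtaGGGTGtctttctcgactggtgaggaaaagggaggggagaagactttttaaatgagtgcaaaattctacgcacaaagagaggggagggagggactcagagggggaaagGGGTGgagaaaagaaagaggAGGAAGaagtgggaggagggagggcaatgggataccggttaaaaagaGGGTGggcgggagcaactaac
Bmx: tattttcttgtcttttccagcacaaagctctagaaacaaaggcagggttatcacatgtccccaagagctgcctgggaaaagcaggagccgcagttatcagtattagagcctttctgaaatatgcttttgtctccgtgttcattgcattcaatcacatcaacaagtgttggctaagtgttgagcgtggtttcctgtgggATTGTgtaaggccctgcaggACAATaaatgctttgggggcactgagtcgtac
Gja5 held 1 match to AGGAAG and 4 to CACCC, whereas Gja4 held 1 and Bmx 2 matches to ACAAT and neither held the other motifs, so that no motif of these was found in all 3 windows. Of all 32851 upstream windows of this length, 29.5% held AGGAAG, 52.0% held CACCC and 27.7% held ACAAT. Upstream sequence was matched for 8 of the 10 names.

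Gja4 had 186, 127, 106 and 111 FPKM in saline 1 to 4, and 25.8 to 72.8 FPKM in the LPS libraries, with a median of 41.6 FPKM. The highest LPS library lay under the lowest saline library, as it did for 16.7% of all genes tested (22.7% had the reverse). Group means were 132 ± 36.6 FPKM (SD, n = 4) in saline and 43.6 ± 16.6 FPKM (SD, n = 6) in LPS, and Gja4 fell by 1.62 on the log2 scale (SE 0.27, adjusted p = 0.00052). The call held under every alternative that was run, with a log2 fold change of -0.85 (adjusted p = 0.00634) when scaled on the pan-endothelial list.

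Gja5 had 12.8, 10.7, 10.5 and 7.42 FPKM in saline 1 to 4, and 1.90 to 7.33 FPKM in LPS, with a median of 5.24 FPKM. The groups did not overlap, but the highest LPS library and the lowest saline library nearly met. Gja5 changed by -1.003 on the log2 scale (SE 0.26, adjusted p = 0.00743). The change was -0.34 (adjusted p = 0.168) when scaled on the pan-endothelial list.

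Bmx had 12.3, 7.62, 5.36 and 5.08 FPKM in saline 1 to 4, and 1.90 to 3.23 FPKM in LPS, with a median of 2.88 FPKM. Saline 1 was the highest library of all, and the other 3 saline libraries also stood above every LPS library. Bmx fell by 1.14 on the log2 scale (SE 0.21, adjusted p = 0.00104), and the change was -0.51 (adjusted p = 0.0741) when scaled on the pan-endothelial list. Leaving out any single library kept the call, with log2 fold changes between -1.28 and -0.90, the latter without saline 1.

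The venous genes took different courses. Slc6a2, which encodes the noradrenaline transporter, fell in LPS, and the Nr2f2 values of the groups overlapped. Slc6a2 (chromosome 8, 92960079 to 93001667, plus strand) had 45.6, 21.8, 7.73 and 22.9 FPKM in saline 1 to 4. In LPS it had 1.49 to 9.53 FPKM, with a median of 7.81 FPKM. Saline 3 lay among the LPS libraries, while the other saline libraries were all above them. Slc6a2 fell by 1.72 on the log2 scale (SE 0.49, adjusted p = 0.0127), and the change was -1.05 (adjusted p = 0.055) when scaled on the pan-endothelial list. Leaving out any single library kept the call, with a log2 fold change between -2.16 and -1.35.

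Nr2f2 (chromosome 7, 70351944 to 70366735, minus strand) had 3.03, 3.07, 2.68 and 3.56 FPKM in saline 1 to 4, and 1.93 to 4.17 FPKM in LPS, with a median of 2.81 FPKM. The LPS range enclosed the saline range. Its log2 fold change was -0.09 (95% interval -0.42 to 0.25, adjusted p = 0.641), which leaves out a change as large as that of the arterial genes. Scaled on the pan-endothelial list it was 0.48 (adjusted p = 0.0411), less than the 0.61 of the median gene under that scaling. A gene on the opposite strand, B130024G19Rik, overlaps Nr2f2.

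**Figure D2:**
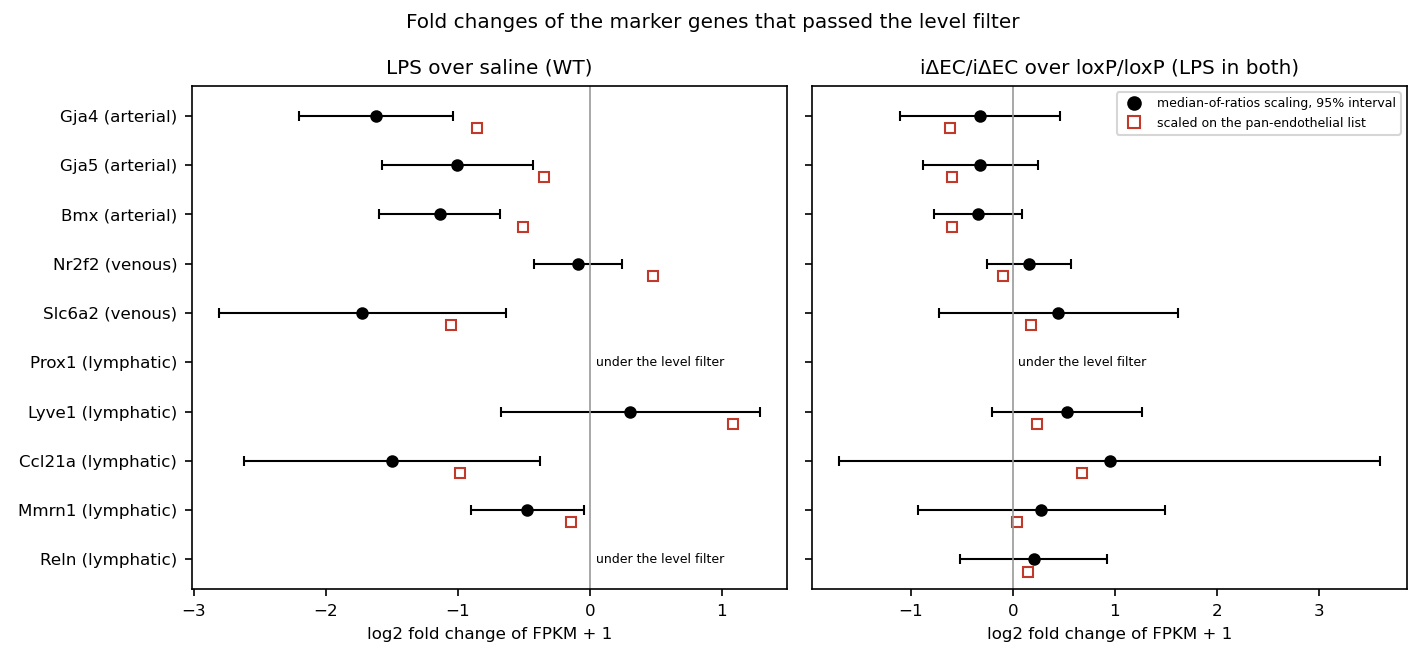
Log2 fold change of FPKM + 1 (x axis) of each marker row that passed the level filter, for LPS over saline (left) and iΔEC/iΔEC over loxP/loxP (right). Filled circles with bars are the limma estimates with 95% intervals, and open squares are the estimates when libraries were scaled on the pan-endothelial list. The intervals of Gja4, Gja5, Bmx, Slc6a2, Ccl21a and Mmrn1 lie below 0 on the left (unadjusted, Mmrn1 with an adjusted p of 0.0614), and every interval on the right includes 0.

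Among the lymphatic genes Lyve1, Mmrn1 and Ccl21a passed the level filter, and Prox1, Reln and the second Ccl21a row did not. Of the 3 rows that passed, Ccl21a was called lower in LPS, and its call rests on few reads. Lyve1 encodes a hyaluronan receptor of lymphatic ECs that some macrophages and lung capillary ECs also carry. Lyve1 (chromosome 7, 110850607 to 110863239, minus strand) had 1229, 252, 434 and 236 FPKM in saline 1 to 4, and 319 to 794 FPKM in LPS, with a median of 563 FPKM. Saline 1 was above every LPS library, whereas saline 2 and saline 4 were below all of them. Lyve1 had a log2 fold change of 0.31 (95% interval -0.67 to 1.29, adjusted p = 0.576). Without saline 1 it was 0.82 (adjusted p = 0.0489), and scaled on the pan-endothelial list 1.08 (adjusted p = 0.0222).

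A list of 6 genes of the macrophages known to carry Lyve1 was read beside it. F13a1, a transglutaminase subunit gene, rose from a mean of 2.83 FPKM in saline to 12.1 FPKM in LPS (log2 fold change 1.98, adjusted p = 0.0031). Folr2 had means of 0.0896 and 0.943 FPKM and Cd163 of 0.0725 and 0.899 FPKM, and both reached the filter only through the LPS libraries, while Timd4 and Cd209f did not reach it. Gas6, the most abundant gene of the list, fell from 37.8 ± 2.61 FPKM to 15.4 ± 3.58 FPKM (log2 fold change -1.28, adjusted p = 0.000175). The list summed to 49.3, 40.0, 36.7 and 38.4 FPKM in saline 1 to 4 and to 22.0 to 38.6 FPKM in LPS, with a median of 28.4 FPKM. Gas6 held 37.8 FPKM of a mean sum of 41.1 FPKM in saline, and 15.4 of 29.4 FPKM in LPS. The lower sums in LPS thus followed Gas6, while F13a1, Folr2 and Cd163 had higher means. The part of these cells in the values of Lyve1 was not tested.

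Prox1 (chromosome 1, 190118035 to 190170714, minus strand) had 22, 52, 18 and 39 reads in saline 1 to 4, or 0.198, 0.280, 0.120 and 0.236 FPKM. It had 4 to 20 reads in the LPS libraries, or 0.0266 to 0.125 FPKM with a median of 0.0512 FPKM. In 5 of the 6 LPS libraries Prox1 was below the lowest saline library, and LPS 6 lay among the saline libraries. Its mean was 0.209 ± 0.0678 FPKM in saline and 0.0589 ± 0.0370 FPKM in LPS, a log2 ratio of the means of -1.83. The difference of log2(FPKM + 1) was -0.19 (two-sided exact permutation p = 0.019, not adjusted over genes). Fitted in limma with no filter on low values, it had an adjusted p of 0.0101 (SE 0.043). Leaving out any single library gave a two-sided exact permutation p between 0.0159 and 0.0476. Prox1os and Gm28172 overlap Prox1 on the opposite strand, and without strand their reads cannot be told apart from its own.

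Mmrn1, which encodes multimerin 1, a protein also stored in platelets, had 1.13, 1.61, 0.506 and 1.82 FPKM in saline 1 to 4, and 0.351 to 1.20 FPKM in LPS, with a median of 0.504 FPKM (chromosome 6, 60924976 to 60989378, plus strand). Saline 2 and saline 4 lay above every LPS library, saline 1 above all but LPS 6, and saline 3 among them. Mmrn1 had a log2 fold change of -0.47 (95% interval -0.90 to -0.04, adjusted p = 0.0614). Leaving out single libraries gave from -0.35 without saline 4 (adjusted p = 0.186) to -0.66 without saline 3 (adjusted p = 0.011), and the adjusted p was also under the threshold without LPS 6 (-0.57, adjusted p = 0.0255). Scaled on total reads it was -0.57 (adjusted p = 0.039), scaled on the pan-endothelial list -0.14 (adjusted p = 0.589), and limma-voom on the read numbers gave -1.09 (adjusted p = 0.0374). Of the 6 tested genes of the megakaryocyte and platelet list 3 rose and 0 fell, beside 29.5% and 23.7% of all genes tested. Its most abundant gene was Pf4, at 9.08 ± 2.55 FPKM in saline and 52.4 ± 21.5 FPKM in LPS, and Gp1bb was listed at 0 in every library. The list summed to 49.3, 40.4, 20.0 and 29.8 FPKM in saline 1 to 4 and to 48.9 to 144 FPKM in LPS. Its part in the values of Mmrn1 was not tested.

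Reln, best known as a guidance protein of the developing brain and secreted by lymphatic ECs, lies on chromosome 5 at 21884454 to 22344702 (minus strand). It had 22, 92, 22 and 97 reads in saline 1 to 4 and 9 to 55 reads in LPS, or 0.0519 to 0.208 FPKM and 0.0211 to 0.122 FPKM. Saline 2 and saline 4 lay above every LPS library and 2 LPS libraries lay below every saline library, with the groups overlapping in between. The difference of log2(FPKM + 1) was -0.07 (two-sided exact permutation p = 0.171). The span of Reln overlaps 7 other genes, 3 of them on the same strand.

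Ccl21a encodes a chemokine that draws T cells and dendritic cells carrying CCR7 into lymphatic vessels and lymph nodes. The mouse has near-identical copies, so their coding sequences were compared first. The coding sequences of Ccl21a and Ccl21b on chromosome 4 (GENCODE M21, 42772860 to 42773993 on the minus strand and 42255767 to 42256432 on the plus strand) are 402 bases long, differ at 2 bases and have 99.5% identity. Counted from the A of the start codon, the differences from Ccl21a to Ccl21b are T84A and C194T. They stand in capitals in these stretches of bases 54 to 113 and 164 to 223.
Ccl21a, bases 54 to 113: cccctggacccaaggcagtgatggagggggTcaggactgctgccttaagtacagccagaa
Ccl21b, bases 54 to 113: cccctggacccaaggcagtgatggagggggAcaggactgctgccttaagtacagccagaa
Ccl21a, bases 164 to 223: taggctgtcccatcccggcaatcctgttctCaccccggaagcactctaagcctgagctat
Ccl21b, bases 164 to 223: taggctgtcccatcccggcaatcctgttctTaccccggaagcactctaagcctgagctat
A read between or beside these bases does not tell the copies apart, so the count of each copy is uncertain. The row of Ccl21a on the unplaced scaffold JH584294.1 (121048 to 121713, 402 bases long) held 338 reads over the first experiment and 1866 over the second, while the chromosome 4 row (870 bases long) held 20 and 23. No sequence of that scaffold was in the sources used here, so its copy was not compared. Both Ccl21b rows held 0 reads in every library, where a count of 0 allows up to 3 reads. A Ccl21c row on scaffold GL456350.1 held 11 and 54 reads, and another on scaffold JH584293.1 held 1 and 0. GENCODE M21 gives these scaffold copies other names than the tables do, apart from Ccl21a.

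The scaffold row of Ccl21a had 6, 49, 42 and 176 reads in saline 1 to 4, or 1.13, 5.51, 5.85 and 22.2 FPKM. It had 4 to 20 reads in LPS, or 0.541 to 2.77 FPKM with a median of 1.44 FPKM. Saline 1 lay among the LPS libraries, and saline 4 was well above the other libraries of the first experiment. Its log2 fold change was -1.50 (SE 0.51, adjusted p = 0.0279, two-sided exact permutation p = 0.0571). It was -2.06 (adjusted p = 0.00161) without saline 1 and -0.91 (adjusted p = 0.069) without saline 4, and the adjusted p was 0.0541 without saline 2, 0.054 without saline 3 and 0.0546 without LPS 1. The chromosome 4 row had 0, 6, 0 and 10 reads in saline 1 to 4 and 0 to 2 reads in LPS (two-sided exact permutation p = 0.267).

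Further genes of each vessel type, taken from lists beside the 10 markers, were counted in the same fit. Of 10 further arterial genes all were tested, and 5 fell and 0 rose, beside 23.7% and 29.5% of all genes tested. Their median log2 fold change was -0.79. Without saline 1, and likewise without saline 3, 4 of them were lower. Hey1, a transcription factor downstream of Notch, fell from 116 ± 28.8 FPKM to 27.0 ± 9.15 FPKM (log2 fold change -2.09, adjusted p = 7.57e-05). Cxcl12, a chemokine, and Efnb2, which encodes the arterial ligand ephrin B2, fell by 1.43 and 1.30 on the log2 scale. Sema3g, a semaphorin and the most abundant gene of the list, had 226 ± 33.3 FPKM in saline and 167 ± 44.0 FPKM in LPS (adjusted p = 0.088). Without a filter on low values 3 of these 10 genes were lower (10.4% of all genes), scaled on total reads 8 (31.3%), and scaled on the pan-endothelial list 2 (4.63%).

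Of the 10 further venous genes 3 rose and 2 fell, beside 29.5% and 23.7% of all genes tested, with a median log2 fold change of -0.03. Without saline 1, 4 were higher and 2 lower, and without saline 3, 2 were higher and 3 lower. Bst1, an ectoenzyme also found on myeloid cells, had 6.94 ± 3.50 FPKM in saline and 57.1 ± 14.1 FPKM in LPS (log2 fold change 2.92, adjusted p = 7.39e-06). Selp, the adhesion molecule P-selectin that platelets hold as well, rose from 3.06 ± 2.86 FPKM to 15.0 ± 6.32 FPKM (log2 fold change 2.14, adjusted p = 0.000945), and Ackr1, the atypical chemokine receptor of venules, from 2.87 ± 3.62 FPKM to 7.48 ± 2.40 FPKM (1.54, adjusted p = 0.0194, and 0.055 without saline 3). Vwf, which encodes von Willebrand factor, fell by 1.05 and Ephb4, the receptor of ephrin B2, by 0.70 on the log2 scale. Ephb4 was the most abundant gene of the list. Scaled on the pan-endothelial list 0 of the venous genes were lower and 5 higher, beside 4.63% and 50.0% of all genes.

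Of the 10 further lymphatic genes 6 passed the filter, of which 3 fell and 1 rose, beside 23.7% and 29.5% of all genes tested, with a median log2 fold change of -0.69. Scn3b, a sodium channel subunit, fell from 54.5 ± 16.7 FPKM to 17.0 ± 3.69 FPKM (log2 fold change -1.59, adjusted p = 0.000191), Flt4, which encodes the VEGF-C receptor VEGFR3, from 24.1 ± 5.40 FPKM to 9.74 ± 2.55 FPKM (-1.24, adjusted p = 0.000401) and Pard6g, a polarity protein gene, by 0.87 on the log2 scale. Pdpn, which encodes podoplanin and is also carried by lung epithelium and fibroblasts, rose from 4.92 ± 3.02 FPKM to 8.31 ± 1.51 FPKM (log2 fold change 0.78, adjusted p = 0.0331), and was not called higher without the filter or when scaled on total reads. Scaled on the pan-endothelial list, 2 of the lymphatic genes were lower and 2 higher, beside 4.63% and 50.0% of all genes. Without saline 1 it was 3 lower and 2 higher. Foxc2, Tbx1, Nts and Fxyd6 did not reach the filter. The most abundant gene, Ackr2, an atypical chemokine receptor, had 40.7 ± 6.69 FPKM and 29.6 ± 8.99 FPKM (adjusted p = 0.104).

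The capillary list had the lowest median of the endothelial lists, -1.43, with 5 of 8 genes lower and 0 higher, beside 23.7% lower over all genes. The same number, 5, was lower when scaled on the pan-endothelial list, where 4.63% of all genes were, and 8 when scaled on total reads (31.3%). Without saline 1, 6 capillary genes were lower, and without saline 3, 5 were. Aplnr, the apelin receptor, fell from 115 ± 24.1 FPKM to 7.32 ± 2.65 FPKM (log2 fold change -3.84, adjusted p = 1.1e-06). Ednrb, an endothelin receptor, and Tbx2, a T-box factor, fell by 2.44 and 1.78 on the log2 scale, and Plvap, a diaphragm protein and the most abundant gene, had 1098 ± 152 FPKM and 773 ± 220 FPKM (adjusted p = 0.101). Of the pan-endothelial list 6 of 10 genes fell and 0 rose, with a median of -0.71, whereas scaled on the list itself 1 was lower and 2 higher. Its count was 5 lower and 0 higher without saline 1, and likewise without saline 3. Cdh5, which encodes VE-cadherin, fell from 710 ± 56.0 FPKM to 394 ± 97.6 FPKM (log2 fold change -0.88, adjusted p = 0.00575), and Kdr, Tek and Tie1 fell too. The most abundant gene, Cldn5 of tight junctions, had 1533 ± 893 FPKM and 1058 ± 442 FPKM (adjusted p = 0.331).

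**Figure D3:**
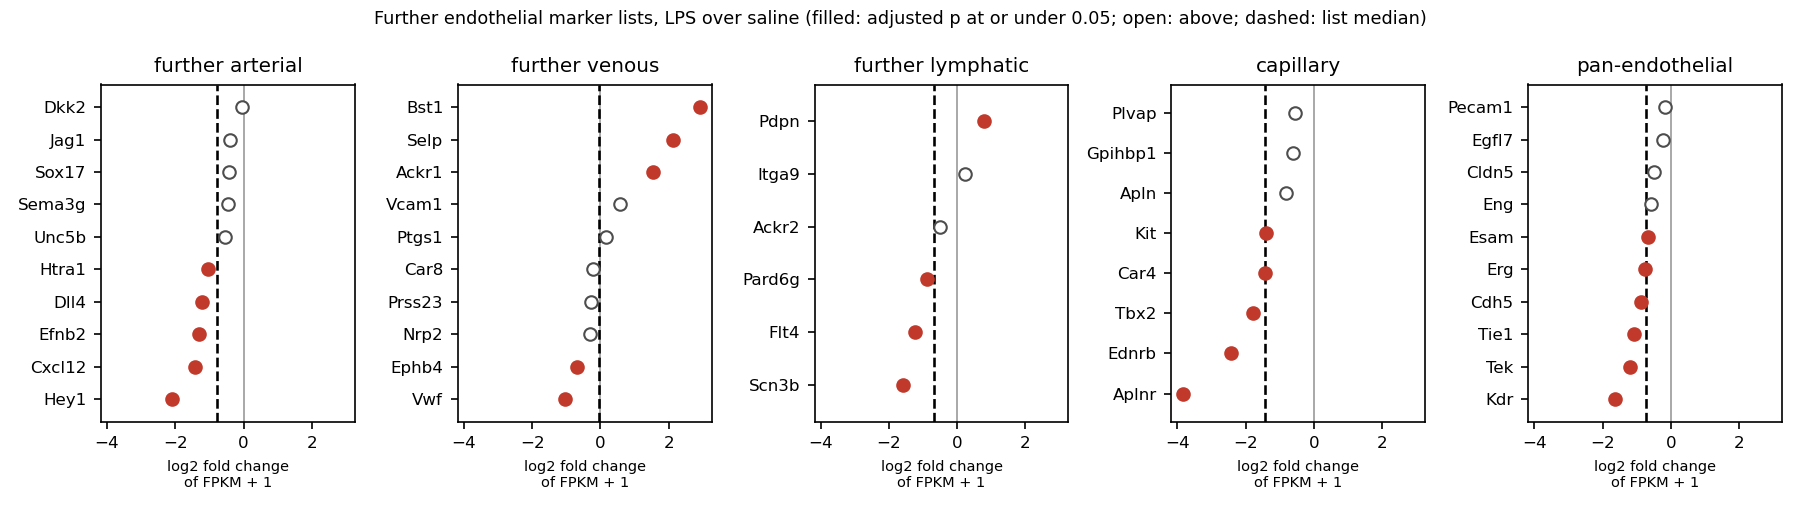
Log2 fold change of FPKM + 1 in LPS over saline (x axis) for each tested gene (y axis) of 5 endothelial marker lists. Filled points have an adjusted p at or under 0.05, open points do not, and dashed lines are list medians. The arterial, capillary and pan-endothelial lists hold called genes on the lower side only, and the venous and lymphatic lists hold them on both sides, with these sides depending on the scaling except for the arterial and capillary lists.

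Markers of other cells were counted in the same fit. All 6 leukocyte genes rose, and the list summed to 228, 156, 76.5 and 138 FPKM in saline 1 to 4 and to 641 to 1554 FPKM in LPS, with Coro1a as its most abundant gene. Of the 8 macrophage genes 7 rose (Mrc1 had an adjusted p of 0.668), and the sums went from a mean of 49.7 FPKM (23.2 FPKM without saline 1) to 1194 FPKM, led by Cd14. Of the 8 neutrophil genes 5 rose (7 without saline 1) and 0 fell. These 3 lists stand beside 29.5% of all genes tested called higher. Of the lymphocyte genes 3 of 5 tested were lower, of the fibroblast genes 4 of 6, of the mural genes 1 of 7 and of the epithelial genes 3 of 9, with 0 higher in each of these lists, beside 23.7% lower over all genes. Scaled on the pan-endothelial list 1 lymphocyte, 0 fibroblast, 0 mural and 1 epithelial genes were lower, beside 4.63% of all genes. Without saline 1 there was 1 lower lymphocyte gene, and 1 lower epithelial gene without saline 1 or without saline 3. Lower fibroblast genes numbered 3 without saline 1 and 5 without saline 3. Without saline 3, 2 mural genes were lower. Without saline 1, the mural gene Acta2 was called higher (log2 fold change 1.535, adjusted p = 0.00185). The epithelial list, led by Sftpc, summed to between 1149 and 2956 FPKM in saline and between 291 and 1015 FPKM in LPS. The lymphocyte list, led by Cd79a, had sums of 24.0 to 134 FPKM in saline and 12.1 to 48.4 FPKM in LPS, the fibroblast list, led by Col3a1, 36.1 to 62.4 FPKM and 19.3 to 45.8 FPKM, and the mural list, led by Acta2, 27.4 to 125 FPKM and 36.4 to 70.7 FPKM. The cardiomyocyte list, led by Actc1, had 3 of 8 genes tested and 0 called, and without saline 1 it had 2 tested and 1 lower. Of the 5 mesothelial genes 0 reached the filter. The parts of these cells in the values of the arterial, venous and lymphatic genes were not tested.

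**Figure D4:**
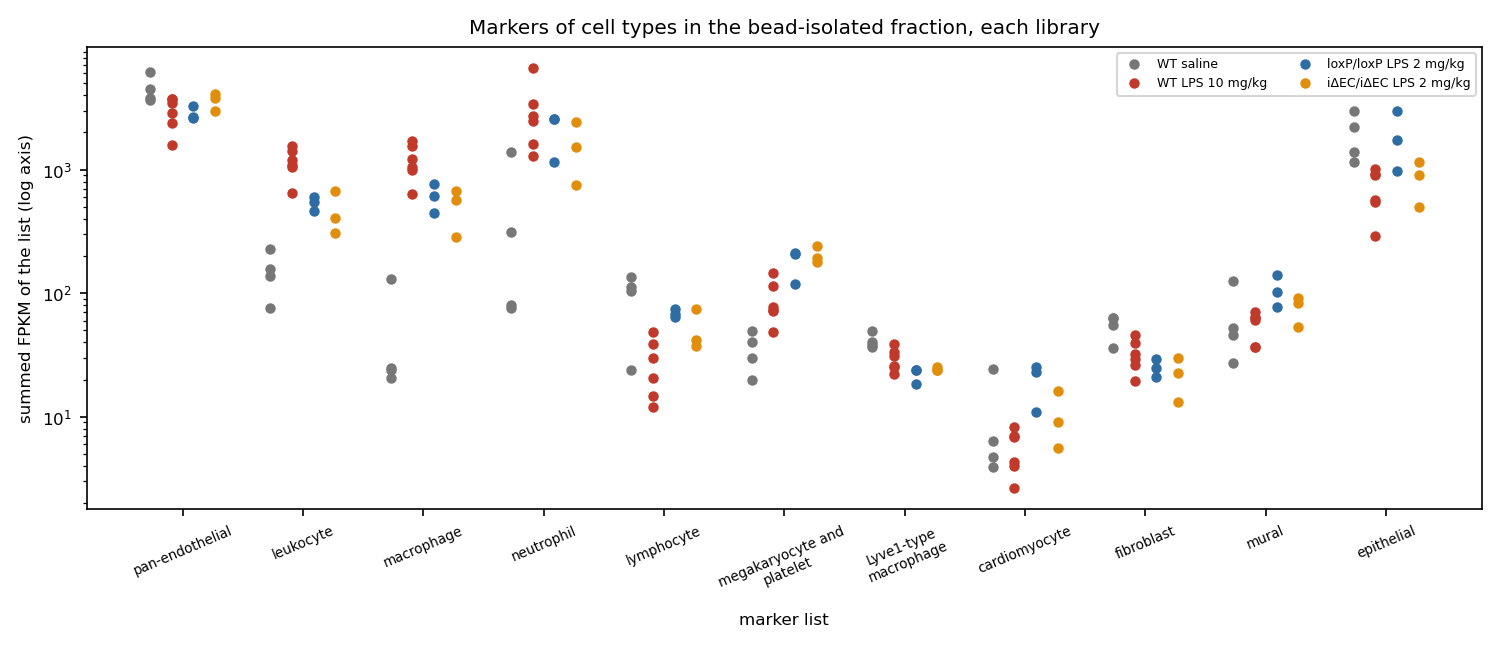
Summed FPKM (y axis, log scale) of marker lists of 11 cell types (x axis) in each library, coloured by group. Saline 1 stands at 1392 FPKM for the neutrophil list, within the LPS range of 1281 to 6639 FPKM, and the leukocyte sums of all LPS libraries lie above those of all saline libraries.

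The second comparison asked whether the markers differ between LPS-treated Fgfr1 iΔEC/iΔEC and loxP/loxP mice. The targeted gene was read first. Fgfr1 had 2.60, 2.90 and 2.91 FPKM in the loxP/loxP libraries and 0.682, 1.15 and 1.41 FPKM in the iΔEC/iΔEC libraries, which did not overlap, in the direction of the labels. Its log2 fold change was -0.88 (SE 0.16, adjusted p = 0.962, two-sided exact permutation p = 0.1, and a design of 3 and 3 libraries cannot give a smaller one). That fold change is of FPKM + 1, which understates the change of low genes, and the log2 ratio of the group means was -1.375. Reads on exons outside the deleted part count toward these values.

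None of the markers was called. Of 14945 genes tested in limma, 0.0% were lower and 0.0% higher at an adjusted p of 0.05 or less, and limma-voom on the read numbers also called 0. At an unadjusted p under 0.05 there were 661 genes (4.42%), among them 0 of the 9 marker rows tested. The smallest adjusted p over all genes was 0.742. The median log2 fold change was 0.21 over the 9 rows and 0.01 over all genes. For 4.09% of genes every iΔEC/iΔEC library was below every loxP/loxP library, and for 6.02% above, and no marker gene was among them.

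Gja4 had 79.1, 85.3 and 68.3 FPKM in loxP/loxP and 77.4, 35.6 and 85.3 FPKM in iΔEC/iΔEC libraries 1 to 3. Library 2 of the iΔEC/iΔEC group stood low, and the others were alike. The log2 fold change was -0.32 (95% interval -1.10 to 0.47), and 0.07 without that library. Gja5 had 14.7, 16.5 and 8.88 FPKM against 10.8, 8.42 and 11.6 FPKM (log2 fold change -0.32, 95% interval -0.88 to 0.24). Bmx had 7.55, 8.47 and 5.00 FPKM against 5.21, 5.66 and 4.79 FPKM (-0.34, 95% interval -0.78 to 0.09). Of the 3 pairs of libraries with the same number, Bmx was lower in the iΔEC/iΔEC library in 3, and Gja4 and Gja5 in 2. The intervals of Gja5 and Bmx leave out a log2 fold change of -1.

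Nr2f2 had 8.19, 6.37 and 5.13 FPKM in loxP/loxP and 6.35, 8.02 and 7.74 FPKM in iΔEC/iΔEC libraries 1 to 3. The iΔEC/iΔEC range lay inside the loxP/loxP range (log2 fold change 0.16, 95% interval -0.25 to 0.57). Slc6a2 had 11.0, 3.59 and 14.7 FPKM against 17.0, 7.82 and 12.9 FPKM (0.45, 95% interval -0.72 to 1.62). Library 2 was the lowest of its group for Slc6a2 in both genotypes.

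Lyve1 had 805, 671 and 438 FPKM in loxP/loxP and 968, 1057 and 704 FPKM in iΔEC/iΔEC libraries 1 to 3. It was higher in the iΔEC/iΔEC library of all 3 same-numbered pairs, and the groups overlapped (log2 fold change 0.53, 95% interval -0.20 to 1.27, adjusted p = 0.962). Ccl21a on the scaffold had 37.2, 3.48 and 61.8 FPKM against 16.3, 115 and 37.6 FPKM. Its interval was the widest of the markers (log2 fold change 0.95, 95% interval -1.70 to 3.60). Mmrn1 had 11.0, 3.55 and 7.15 FPKM against 3.80, 14.2 and 9.90 FPKM (0.28, 95% interval -0.93 to 1.49). Reln had 0.929, 0.262 and 0.487 FPKM against 0.179, 1.40 and 0.958 FPKM (0.21, 95% interval -0.52 to 0.93). At this level log2(FPKM + 1) understates the change and narrows the interval. The log2 ratio of the Reln means was 0.597.

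Prox1 had 82, 53 and 79 reads in loxP/loxP and 19, 84 and 88 reads in iΔEC/iΔEC libraries 1 to 3. These were 0.575, 0.385 and 0.518 FPKM against 0.138, 0.590 and 0.645 FPKM. The iΔEC/iΔEC group held both the lowest and the highest libraries (difference of log2(FPKM + 1) of -0.05, two-sided exact permutation p = 1.0). Prox1, Mmrn1 and Reln were all lowest in library 2 of the loxP/loxP group and in library 1 of the iΔEC/iΔEC group. Ccl21a was lowest in the same libraries. With this spread between libraries, differences within the intervals above were not detectable in the fit without pairs, which gave these intervals. The fit that took same-numbered libraries as pairs called no marker either.

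In the further lists 0 genes were called in either direction in iΔEC/iΔEC over loxP/loxP mice. Median log2 fold changes were -0.06 over 10 further arterial, 0.10 over 10 further venous, 0.08 over 10 further lymphatic, 0.18 over 8 capillary and 0.33 over 10 pan-endothelial genes. The leukocyte list had a median of -0.25 and the epithelial list of -0.69. The epithelial list summed to 973, 1727 and 2969 FPKM in loxP/loxP and 496, 1142 and 899 FPKM in iΔEC/iΔEC libraries 1 to 3. The neutrophil list summed to 1162, 2546 and 2558 FPKM against 748, 2438 and 1513 FPKM. Their part in the marker values was not tested.

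To describe which markers vary together between libraries of a group, the deviation of log2(FPKM + 1) from the mean of the own group was correlated over all 16 libraries. Points of a gene pair share the library and its depth, so these correlations are given as descriptions. Mmrn1 and Reln had a Pearson r of 0.93, Prox1 and Reln of 0.89, Prox1 and Mmrn1 of 0.88, and Ccl21a and Mmrn1 of 0.67. Lyve1 did not go with them. Its r was -0.17 with Prox1, -0.06 with Mmrn1, -0.04 with Reln and -0.38 with Ccl21a, whereas it was 0.78 with the arterial gene Bmx and 0.58 with Gja5. Without saline 1, the highest library of both Lyve1 and Bmx, the r of Lyve1 (n = 15) was 0.50 with Bmx, 0.63 with Gja5 and -0.06 with Ccl21a. The arterial genes had r of 0.70 (Gja4 and Gja5), 0.67 (Gja5 and Bmx) and 0.46 (Gja4 and Bmx), the last being 0.31 without saline 1. Without that library the r between Prox1, Mmrn1 and Reln were again 0.88 to 0.93. In the first experiment Prox1 did not exceed 0.280 FPKM and Reln 0.208 FPKM, where log2(FPKM + 1) leaves little deviation. The r of these 2 genes therefore rested mainly on the loxP/loxP and iΔEC/iΔEC libraries, which leaving out saline 1 does not test. Nr2f2 and Slc6a2 had r of 0.34, and Nr2f2 had r of 0.58 with Mmrn1.

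**Figure D5:**
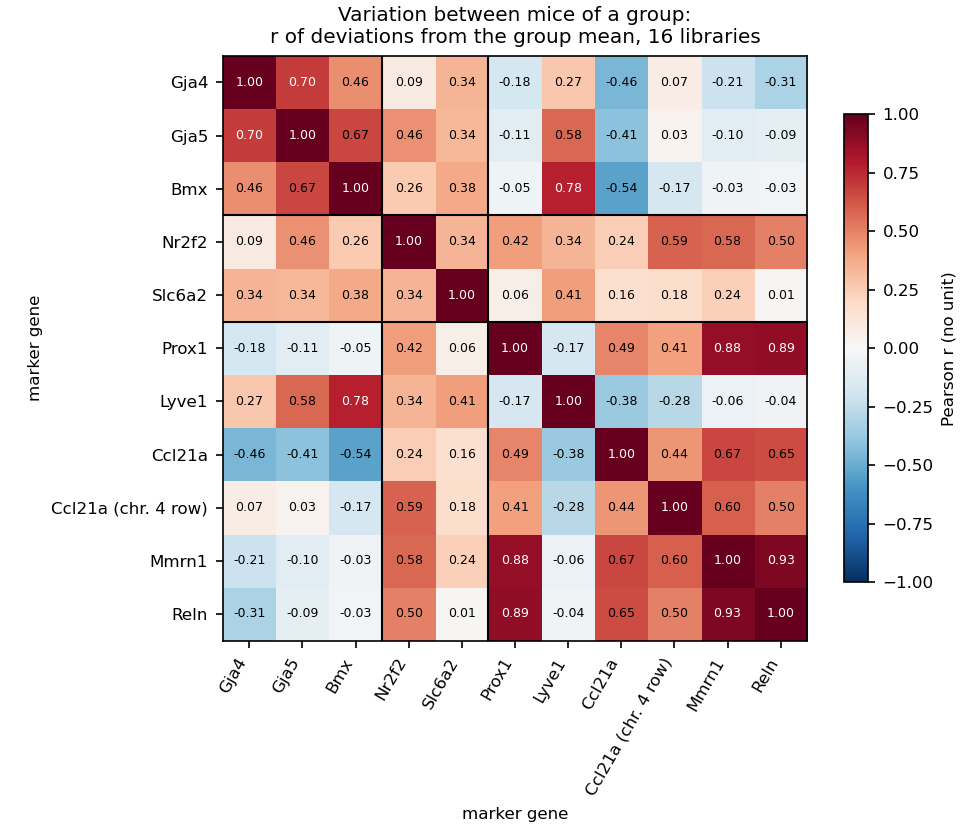
Pearson r (colour and printed value, no unit) of the deviations of log2(FPKM + 1) from the group mean between each pair of marker rows over 16 libraries, with black lines between the arterial, venous and lymphatic genes. Prox1, Mmrn1 and Reln form a block of r from 0.88 to 0.93, and Lyve1 has r near or under 0 with them. Prox1 and Reln deviate little on this scale in the first experiment, so their r rest mainly on the second.

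Over 12328 genes whose mean reached 1 FPKM in both experiments, the deviations most like those of Prox1 were of Ppl (r = 0.81), Clec3b (0.81) and Trim12a (0.81), each less like it than Mmrn1 and Reln were. Those most like Gja5 were of Vcam1 (0.92), Cfl2 (0.91) and Hid1 (0.91). Those most like Nr2f2 were of Tgfb2 (0.93), Fmo2 (0.89) and Gm7887 (0.85).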

How the data were processed

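RNA-seq of mouse pulmonary ECs isolated with magnetic beads was used, in 4 groups. The authors aligned the reads to GRCm38 (mm10) with HISAT2 2.0.5, counted them on genes with featureCounts 1.5.0-p3, used DESeq2 for their own tests and deposited FPKM values in a table per experiment. The annotation release, strand setting and treatment of reads with several alignments are not given in the sources used here. The FPKM multiplied by gene length gave whole read numbers, within 0.1 read, for 100.0% of values. The 95% intervals are those of limma and rest on the spread between libraries, and the floor of 3 reads covers counting error only, as no molecular identifiers were used. The symbols of 11 genes differed between the tables, and those of the first experiment were used.

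Per-library values in the text are FPKM as deposited. Means, SD and tests use values scaled by median-of-ratios factors. Genes whose mean reached 0.5 FPKM were tested on log2(FPKM + 1), a scale that understates the change of low genes, with limma 3.58.1 in R 4.3.3 (lmFit, eBayes with trend), and p-values were adjusted over all genes tested. A gene was called at an adjusted p of 0.05 or less, with no limit on the fold change. Marker genes under the filter were compared by exact permutation tests. The procedure was tested on simulated data. Python 3.11.15, pandas 2.3.3, numpy 2.4.6, scipy 1.17.1 and matplotlib 3.10.9 were used for the rest.

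Same-numbered loxP/loxP and iΔEC/iΔEC libraries deviated together (r = 0.25, 0.18 and 0.19 for numbers 1 to 3), so these numbers were treated as pairs in an alternative fit. Replicates are separate libraries as labelled, and where no source ties them to separate mice p-values measure the spread between libraries. The 10 markers, the further lists and the tests were chosen with earlier results of these data known. Named in the text are all 10 markers, Fgfr1, Pecam1, Cdh5, Ptprc, the most abundant gene of a list, up to 3 called genes of each endothelial list with the largest change, copies of Ccl21a, and the 3 genes most like Prox1, Gja5 and Nr2f2. Other genes were named after their values were seen.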

Additional observations from a re-analysis of the deposited data

How the results depend on the processing

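In LPS over saline, scaling on the pan-endothelial list called 1 marker row lower and 2 higher (Lyve1 and Nr2f2, whose log2 fold change turned to 0.48). Over all genes 696 were then lower and 7508 higher. In the main fit, a limit of 1 on the absolute log2 fold change left 1011 genes lower and 1768 higher. Scaling on total reads moved the median gene to -0.14 and called 6 marker rows and 31.3% of all genes lower, and limma-voom on the read numbers, chosen after seeing the data, called 6 and 26.8%. The replicate block, on 8 libraries, gave 3 marker rows and 17.2% of all genes lower, with Gja5 (log2 fold change -1.02, adjusted p = 0.053) and Slc6a2 (-1.93, adjusted p = 0.0519) past the threshold no longer. The numbers of saline and LPS libraries do not pair them (r = 0.10, -0.16, -0.21 and -0.12). Leaving out single libraries gave 4 to 6 marker rows lower, 0 to 1 higher, 2890 to 3766 genes lower and 3815 to 4606 higher. Without a filter Ccl21a had an adjusted p of 0.0746 and Prox1, under the filter otherwise, of 0.0101.

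Between the genotypes of the second experiment every alternative, the replicate block included, called 0 genes. The sign turned for Nr2f2 scaled on the pan-endothelial list (-0.097) and for the chromosome 4 row of Ccl21a with a pseudocount of 0.1 FPKM (0.005). Leaving out single libraries gave log2 fold changes on both sides of 0 for Gja4 (-0.55 to 0.070), Slc6a2 (-0.081 to 0.81), Ccl21a (-0.20 to 1.70), its chromosome 4 row (-0.21 to 0.18), Mmrn1 (-0.095 to 0.75), Reln (-0.016 to 0.50) and Prox1 (-0.15 to 0.12), where the turned signs were without loxP/loxP 2 (Slc6a2, Ccl21a, Mmrn1), iΔEC/iΔEC 2 (Gja4, Mmrn1, Reln), iΔEC/iΔEC 1 (Prox1) or loxP/loxP 1 (the chromosome 4 row). Fgfr1 stayed between -0.998 and -0.74. The causes were not tested. The planned count models were not run, and limma-voom on the recovered read numbers took their place.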

Other observations

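Levels in the LPS libraries of the 2 experiments are set side by side here with no test, since the tables were normalized separately and dose and genotype differ. Mmrn1 had 0.610 ± 0.304 FPKM (SD, n = 6) in WT mice given 10 mg/kg LPS and 7.23 ± 3.72 FPKM (SD, n = 3) in loxP/loxP mice given 2 mg/kg. Prox1 had 0.0589 ± 0.0370 FPKM and 0.493 ± 0.0980 FPKM, Reln 0.0682 ± 0.0385 FPKM and 0.560 ± 0.340 FPKM, and the scaffold row of Ccl21a 1.51 ± 0.720 FPKM and 34.2 ± 29.3 FPKM. Lyve1 had 549 ± 178 FPKM and 638 ± 185 FPKM, which overlap. All 3 arterial and both venous markers also had the higher mean in the second experiment, as had 9 of 10 further arterial, 9 of 10 further venous and 8 of 10 further lymphatic genes, but 4 of 8 capillary, 6 of 10 pan-endothelial and 0 of 6 leukocyte genes. So had 6 of 6 lymphocyte, 8 of 8 cardiomyocyte, 8 of 10 epithelial, 6 of 7 megakaryocyte and platelet and 5 of 7 mural genes. For macrophage and neutrophil genes it was 1 of 8 each, for fibroblast genes 2 of 7 and for mesothelial genes 2 of 5. Of the genes of macrophages known to carry Lyve1 it was 3 of 6. No share over all genes is given here. The means were 2.89 and 6.56 FPKM for Nr2f2, 2.74 and 7.01 FPKM for Bmx, 4.88 and 13.4 FPKM for Gja5, 39.8 and 117 FPKM for Vwf, and 14.4 and 110.5 FPKM for Prss23, a serine protease gene of the venous list, while Bst1 of the same list had 57.1 and 40.0 FPKM. The loxP/loxP values of Prox1, Mmrn1 and Reln also lay above every saline library of the first experiment. The share of all genes that did so was not counted. Neither this order nor the counts above can therefore be read as particular to the markers. Pf4, a platelet gene, had 52.4 ± 21.5 FPKM and 88.1 ± 32.6 FPKM. The Ccl21c row on scaffold GL456350.1 held 41 of its 54 reads of the second experiment in loxP/loxP 1.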
